A study of Saccharomyces cerevisiae with 227 samples.

Results

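The genes described here are 10 of the 5609 open reading frames measured on custom oligonucleotide microarrays of the yeast Saccharomyces cerevisiae. They code for enzymes of fatty acid beta-oxidation and for proteins that work beside it, and they were taken by name: POX1 (YGL205W), FOX2 (YKR009C), POT1 (YIL160C), ECI1 (YLR284C), SPS19 (YNL202W), FAA2 (YER015W), CTA1 (YDR256C), PEX11 (YOL147C), CAT2 (YML042W) and CRC1 (YOR100C). All 10 were found in the table of values. The list was selected on results of these arrays already known, and which values were used is not stated, so the calls below describe these arrays and are no independent support for the choice of genes.

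In yeast, fatty acids are broken down only in the peroxisome. An acyl-CoA synthetase activates the fatty acid, an oxidase opens each turn of the spiral and passes electrons to oxygen as hydrogen peroxide, a multifunctional enzyme and a thiolase complete the turn, and the acetyl units leave for the mitochondrion either through the glyoxylate cycle or as acetylcarnitine. Genes of the pathway are best known for their induction by oleate, which acts through the Oaf1-Pip2 pair and Adr1, and for their repression by glucose. The galactose medium (SSG-TEA) contained Tween 80, an ester of oleate, and ergosterol before and after every treatment, and the glucose medium is labelled SSD-TEA.

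A total of 227 arrays in 76 groups covered 7 time series, with 3 arrays in each group except 1 group of 2. In the antimycin A series, cells of strain JM43, a MATα strain with auxotrophic mutations in leu2, his4, trp1 and ura3 and with intact mitochondrial DNA (rho+), grew aerobically in galactose medium. They then received 1 µM antimycin A, an inhibitor of the respiratory cytochrome bc1 complex, and were sampled for 3 generations in air (33 arrays). The gas was then switched to O2-free N2 with the inhibitor still present, for a further 3 generations (30 arrays). Without inhibitor, JM43 was shifted from air to N2 and followed for 6 generations in glucose medium (41 arrays) and in galactose medium (42 arrays). An msn2/4 mutant, which lacks the general stress factors Msn2 and Msn4, was followed for 2 generations of N2 in galactose (15 arrays). The strain background of the mutant is not given in the sources used here. After 6 generations of N2, air was returned to glucose and to galactose cultures (33 arrays each). The control was the aerobic culture before the shift or the inhibitor, and for re-aeration the culture after 6 generations of N2. For N2 with antimycin A it was the culture after 3 generations of the inhibitor in air, which has the same arrays as the last point of the antimycin A series.

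Each value was read as a log2 ratio of the sample's RNA (Cy3) to a reference pool (Cy5). The base of the logarithm is not stated in the sources used here, and with another base all fold changes below would differ. The direction was taken from the dyes named in the labels. Arrays of 1 orientation correlated as low as -0.53 within a series, between times whose samples may move opposite ways against a pool. The labels name 4 references for the 7 series and do not say whether 1 name stands for 1 pool, so a ratio is not read as saying anything of the level of a gene relative to another gene, or to the same gene in another series. A log2 change is the mean of the arrays at a time point minus the mean of the control arrays, and is given with its standard error. A gene was called at a time point when its Holm-adjusted P (step-down Bonferroni over all genes) from limma was at most 0.01. The median correlation between arrays of a group was 0.81 to 0.95 across the 7 series, and the lowest was 0.46, between arrays of the antimycin A group at 3 generations. The mutant's label was checked on MSN2, whose log2 ratio was -3.86 to -5.68 on the 15 mutant arrays, against -0.50 to 0.53 on the 42 wild type arrays. MSN4 lay at -1.30 to -3.32 on the mutant arrays and at -0.61 to 0.33 on the wild type arrays.

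**Figure D1:**
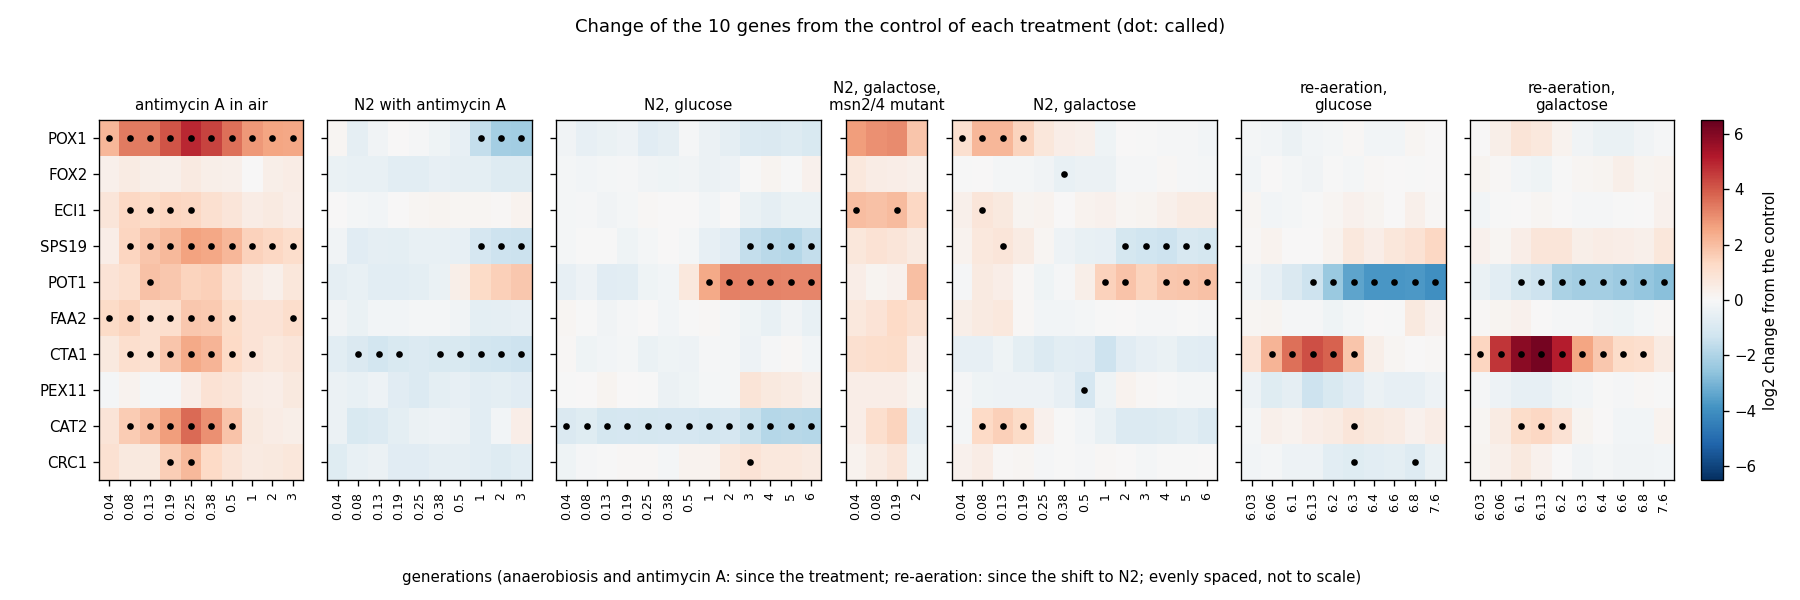
Log2 change of the 10 genes (rows) from the control of each treatment, by generation (columns, evenly spaced), from blue (lower than the control) to red (higher). A dot marks a call. POX1 was called at all 10 times of antimycin A in air, CAT2 at all 13 times of N2 in glucose, and CTA1 at 9 of 10 times of re-aeration in galactose.

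The first comparison asks what inhibition of respiration in air does to these genes. Antimycin A raised 8 of the 10 genes, while 11.4% of all genes tested were called higher at 1 or more time points. POX1, the peroxisomal acyl-CoA oxidase that opens the spiral, showed the largest change, 29.9-fold at 0.25 generations, followed by CAT2 at 12.8-fold. FOX2, the multifunctional enzyme of the next steps, and PEX11, a membrane protein that drives peroxisome proliferation, were not called. No member was called lower by limma, when 12.3% of all genes were, at any of the 10 times, and none was lower at an unadjusted P under 0.05 either. At 0.25 generations the median change of the 10 genes was 1.92, against -0.01 for all genes, and 7 of them were called higher at that time, when 7.58% of genes were.

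POX1 had log2 ratios of 4.70, 4.74 and 4.64 at 0.25 generations of antimycin A, against -0.09, -0.28 and -0.24 before the inhibitor. The arrays of the 2 groups were far apart, and the change was 4.90 ± 0.25 (adjusted P = 3.38e-14 by limma with Holm adjustment). POX1 was called from the first sample onward, at 2.17 ± 0.25 by 0.04 generations, and was still 2.53 ± 0.25 above the control at 3 generations. At that last time replicate arrays read 1.63, 2.72 and 2.60, the first of them below the other 2 but above all the control arrays.

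The enzymes that deal with double bonds in unsaturated fatty acids also rose. SPS19, the 2,4-dienoyl-CoA reductase, had log2 ratios of 3.06, 2.78 and 2.85 at 0.25 generations of antimycin A, against 0.18, 0.52 and 0.20 before it. The groups did not overlap, the change was 2.60 ± 0.16, and SPS19 remained called at 9 of 10 times, through 3 generations (1.16 ± 0.16). ECI1, the enoyl-CoA isomerase, read 0.88, 1.28 and 0.46 at 0.19 generations of antimycin A, against -0.50, -0.44 and -0.62 before it. Its change of 1.39 ± 0.18 came with a wide spread among the treated arrays, and it was called from 0.08 to 0.25 generations only. POT1, the 3-ketoacyl-CoA thiolase that ends each turn, was called at 1 time, with 0.46, 0.50 and -0.17 at 0.13 generations of antimycin A, against -1.78, -1.45 and -1.67 before it. Its change was 1.90 ± 0.31 (adjusted P = 0.00588 by limma with Holm adjustment), and the call was lost when any 1 of replicates 1, 2 and 3 was left out.

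FAA2, the peroxisomal acyl-CoA synthetase, had 1.64, 1.71 and 1.57 at 0.25 generations of antimycin A, against -0.16, -0.17 and 0.03 before it. Its course had 2 maxima, 1.42 ± 0.16 at 0.08 generations and 1.74 ± 0.16 at 0.25, with 0.97 ± 0.16 between them at 0.13. CTA1, the heme-containing catalase A that removes the peroxide made by the oxidase, had 2.82, 2.64 and 2.56 at 0.25 generations of antimycin A, against 0.12, 0.37 and 0.11 before it. The catalase groups were apart, and its change of 2.48 ± 0.15 was followed by a decline to 0.90 ± 0.15 at 1 generation, the last time it was called.

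Both genes of acetylcarnitine transfer rose and then returned towards the control. CAT2, the carnitine acetyltransferase of peroxisomes and mitochondria, read 3.82, 3.88 and 3.88 at 0.25 generations of antimycin A, against 0.29, 0.21 and 0.04 before it. It was called from 0.08 to 0.5 generations, with a change of 3.68 ± 0.15 at the maximum and 0.64 ± 0.15 at 1 generation, when it was no longer called. CRC1, the mitochondrial carnitine carrier, read 2.27, 1.96 and 1.81 at 0.25 generations of antimycin A, against 0.21, -0.05 and -0.44 before it. It was called at 0.19 and 0.25 generations only, and its change at the maximum was 2.11 ± 0.22. Fitted to only the 2 groups compared, ECI1 and CRC1 lost their calls and the other 6 genes kept theirs.

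FOX2 and PEX11 were not called, although both were with Benjamini-Hochberg adjustment, when 3058 of all genes were. FOX2 changed by at most 0.58 (95% interval 0.29 to 0.87) at 0.25 generations, where its arrays read 0.41, 0.80 and 0.81 under antimycin A, against -0.06, 0.01 and 0.34 before it. These FOX2 groups did not overlap, although its difference did not reach the threshold. PEX11 was highest later than the enzymes, with 1.53, 1.29 and 1.09 at 0.38 generations of antimycin A, against 0.36, 0.44 and 0.24 before it. That PEX11 change of 0.96 ± 0.19 had an adjusted P of 0.10 by limma with Holm adjustment. Alternate time points of a series came from separate fermentor runs that the labels do not identify, so a difference between neighbouring times cannot be told apart from a difference between runs.

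**Figure D2:**
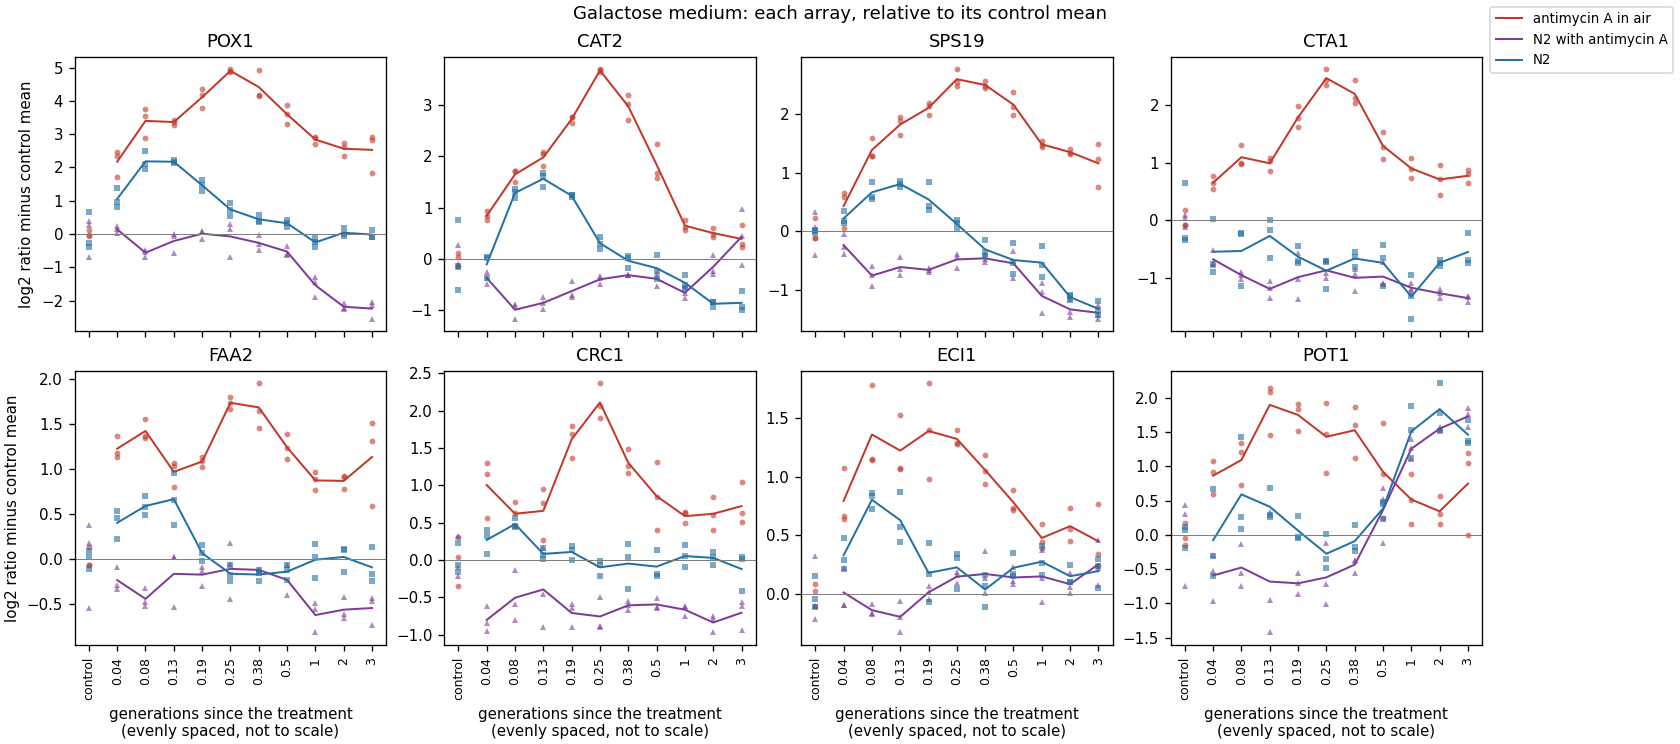
Log2 ratio of each array minus the mean of its control arrays, for 8 genes in galactose medium, against generations since the treatment (evenly spaced). Circles are antimycin A in air, triangles N2 with antimycin A and squares N2 without inhibitor; lines join the means. POX1, CAT2, SPS19 and CTA1 peaked at 0.25 generations of antimycin A in air, while N2 alone gave POX1 and CAT2 maxima at 0.08 and 0.13 generations.

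The second comparison asks whether loss of oxygen acts on these genes as the inhibitor does. In N2 without inhibitor, 7 of the 10 genes were called, 5 higher and 3 lower at some time, with SPS19 in both directions. In the same fit 21.6% of all genes were called higher and 25.8% lower. POX1 had 1.80, 1.27 and 1.40 at 0.08 generations of N2, against -0.05, -0.96 and -1.08 in air. Replicate 1 of the control stood above the other 2, yet all the N2 arrays were higher, and the change of 2.18 ± 0.17 (4.54-fold) was called at 0.04 to 0.19 generations. By 1 generation the change of POX1 was -0.25 ± 0.17.

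CAT2 read 1.38, 1.66 and 1.59 at 0.13 generations of N2, against 0.74, -0.15 and -0.64 in air. Its control arrays were spread widely, and its change of 1.56 ± 0.18 was called from 0.08 to 0.19 generations. ECI1 (0.80 ± 0.13 at 0.08 generations) and SPS19 (0.81 ± 0.13 at 0.13 generations) were called once each in this early period. FAA2, CTA1 and CRC1 were not called at any time in N2: their largest changes were 0.67 ± 0.13 at 0.13 generations for FAA2, -1.33 ± 0.26 at 1 generation for CTA1 and 0.48 ± 0.15 at 0.08 generations for CRC1. PEX11 fell by 1.08 ± 0.13 at 0.5 generations, with -0.88, -0.33 and -0.59 in N2 against 0.22, 0.61 and 0.61 in air, and FOX2 fell by 0.48 ± 0.08 at 0.38 generations.

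POT1 and SPS19 were called again, or first, at later times. POT1 had 1.24, 0.88 and 0.92 after 6 generations of N2, against -0.78, -0.81 and -1.08 in air, a change of 1.90 ± 0.26. It was called from 1 generation onward except at 3 generations (1.46 ± 0.26). SPS19 had -1.04, -0.94 and -0.90 after 4 generations of N2, against 0.34, 0.39 and 0.37 in air, and was called lower from 2 to 6 generations, by 1.33 ± 0.13 at 4 generations. All 3 arrays of each group were on their own side for both genes. CAT2 also lay lower late in N2, at -0.91 ± 0.18 after 6 generations, with -0.96, -0.81 and -1.02 in N2 against 0.74, -0.15 and -0.64 in air, and was not called there. These counts depended on the replicates: 5, 2 and 3 genes were called without replicates 1, 2 and 3, and only POX1 and SPS19 were called in every one of the 3. Of all genes, 1758, 1280 and 1475 were called in these fits, against 2431 with all replicates. Fitted to only the 2 groups compared at a time, 2 genes were called, POT1 and SPS19, when 654 of all genes were.

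At matched generations the change was more positive with the inhibitor than in N2 for 9 of the 10 genes. This was tested as the difference between the changes, when 15.7% of all genes differed in either direction. Of these 9, FOX2 and PEX11 were called lower in N2 and were not called with antimycin A. POX1 differed from 0.19 to 3 generations, by 4.17 ± 0.30 at 0.25 generations, where its change was 4.90 with antimycin A and 0.73 in N2. CAT2 differed by 3.38 ± 0.24 and CTA1 by 3.35 ± 0.32 at the same time, and CTA1 lay 2.48 above its control with antimycin A and 0.88 below it in N2. SPS19 differed by 2.81 ± 0.20 at 0.38 generations and still by 2.48 ± 0.20 at 3 generations. FOX2, by 0.87 ± 0.15 at 0.38 generations, and ECI1, by 1.21 ± 0.22 at 0.19 generations, were the weakest, and both lost their call without replicate 1, 2 or 3 (7 genes left in each case); without replicate 4 only ECI1 lost it. Fitted to only the groups compared, FOX2, PEX11 and ECI1 lost their calls and POT1 gained one. With all time points in the fit, the difference for POT1 ran from -1.49 to 1.71 ± 0.41 and was not called. In the first 0.13 generations none of the 10 genes differed at the threshold: for POX1 at 0.08 generations the difference was 1.22 ± 0.30.

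The third comparison asks what N2 does to cells that had already been treated with the inhibitor for 3 generations. Of the 10 genes, 3 were called lower (8.24% of all genes were) and none higher (10.4% of all genes were), although 2 were higher at an unadjusted P under 0.05. POX1 had -0.22, 0.17 and 0.28 after 3 generations of N2, against 1.63, 2.72 and 2.60 in air with antimycin A. The 2 groups were apart, and the change of -2.24 ± 0.23 built up from 1 generation onward (-1.54 ± 0.23), with no call before that. SPS19 followed the same times, reaching -1.39 ± 0.16 at 3 generations, and CTA1 was called lower at 8 of 10 times, from 0.08 generations, reaching -1.36 ± 0.15. Without replicate 2 the call of SPS19 was lost, and in fits to only the 2 groups compared none of the 3 was called, where 159 of all genes were.

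POT1 and CAT2 were the 2 members higher at an unadjusted P under 0.05. POT1 read 0.68, 0.88 and 0.97 after 3 generations of N2, against -0.44, -0.58 and -1.63 in air with antimycin A. The arrays did not overlap, but the spread of the control left its change of 1.73 ± 0.31 short of the threshold (adjusted P = 0.0409 by limma with Holm adjustment). CAT2 changed by 0.43 ± 0.17 at 3 generations. Both antimycin A series carry 1 reference name. If it stands for 1 pool, as the comparison above also requires, the N2 arrays can also be set against the culture before the inhibitor. By that measure POX1 lay only 0.28 ± 0.19 above its level before the inhibitor after 3 generations of N2 (95% interval -0.11 to 0.68), and SPS19 lay at -0.23 ± 0.14 (-0.50 to 0.05). POT1 was 2.48 ± 0.28 and ECI1 0.70 ± 0.12 higher than before the inhibitor, and both were called. Over all times 5 of the 10 genes were called against that control, when 27% of all genes were in either direction. All 5 were called higher: POX1, POT1, FAA2, ECI1 and SPS19. POX1 was called from 0.04 generations (2.66 ± 0.19) to 0.5 generations (2.00 ± 0.19), and SPS19 at 0.04 generations only (0.93 ± 0.14).

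The early rise in N2 differed between cells with and without the inhibitor for 3 of the 10 genes, when 29.7% of all genes differed in either direction. At 0.08 generations POX1 changed by -0.56 with antimycin A and by 2.18 without it, a difference of -2.75 ± 0.29. CAT2 differed by -2.43 ± 0.25 at 0.13 generations and SPS19 by -1.42 ± 0.20 at 0.08 generations. For POX1 the difference was again called at 2 and 3 generations (-2.22 ± 0.29 at both). Without replicate 2 only POX1 was called, and with the groups compared alone in the fit none was, where 415 genes were. The wild type N2 arrays in galactose entered this comparison, the previous difference and those with glucose and with the mutant, so these results are not independent of each other.

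The fourth comparison is between sugars. In glucose, 4 of the 10 genes were called over 6 generations of N2, 2 higher and 2 lower, against 13.1% higher and 15.3% lower of all genes. POT1 again rose late, and by more: 1.94, 1.70 and 1.76 after 2 generations of N2, against -1.39, -1.52 and -1.52 in air. The change of 3.28 ± 0.18 was 9.69-fold and varied little to 6 generations (3.16 ± 0.18). The direct test between the sugars called POT1 at 3 generations only, by 1.76 ± 0.32, where its change was 3.22 in glucose and 1.46 in galactose, and that call was lost without replicate 1 or replicate 2.

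CAT2 fell at all 13 times in glucose. It had -0.86, -1.10 and -0.85 after 4 generations of N2, against 1.05, 0.79 and 0.86 in air, and its change was -0.93 ± 0.12 by 0.04 generations and -1.84 ± 0.12 at 4. SPS19 fell late as in galactose, to -1.84, -1.49 and -1.18 after 5 generations of N2, against 0.09, 0.16 and 0.77 in air (-1.85 ± 0.20). Control array 3 of SPS19 was well above the other 2. CRC1 was called higher once, at 3 generations (0.88 ± 0.13), and PEX11 reached 0.86 ± 0.16 at the same time without a call. The call of CRC1 was lost when any 1 of the 3 replicates was left out. Without replicate 2 only POT1 and CAT2 were called, and these 2 were called whichever replicate was left out.

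The early rise of the oxidase was not seen in glucose. POX1 had -0.30, 0.07 and -0.11 at 0.08 generations of N2 in glucose, against 0.43, 0.45 and 0.42 in air, all below the control although the change of -0.54 ± 0.17 was not called. POX1 was called at some time in glucose with the arrays centred on their median, without replicate 1, and with only the groups compared in the fit, where SPS19 and CRC1 lost their calls. The difference between glucose and galactose was -2.73 ± 0.25 for POX1 at 0.08 generations and -2.68 ± 0.22 for CAT2 at 0.13 generations, and both were called from 0.08 to 0.25 generations. ECI1 differed late, by -0.98 ± 0.18 at 5 generations, a call that was lost without replicate 2 or replicate 3. In all, 4 of the 10 genes differed between the sugars, against 33.3% of all genes. After quantile normalization, and also without replicate 2, only POX1 and CAT2 were called. Fitted to only the groups compared, ECI1 and CAT2 lost their calls.

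**Figure D3:**
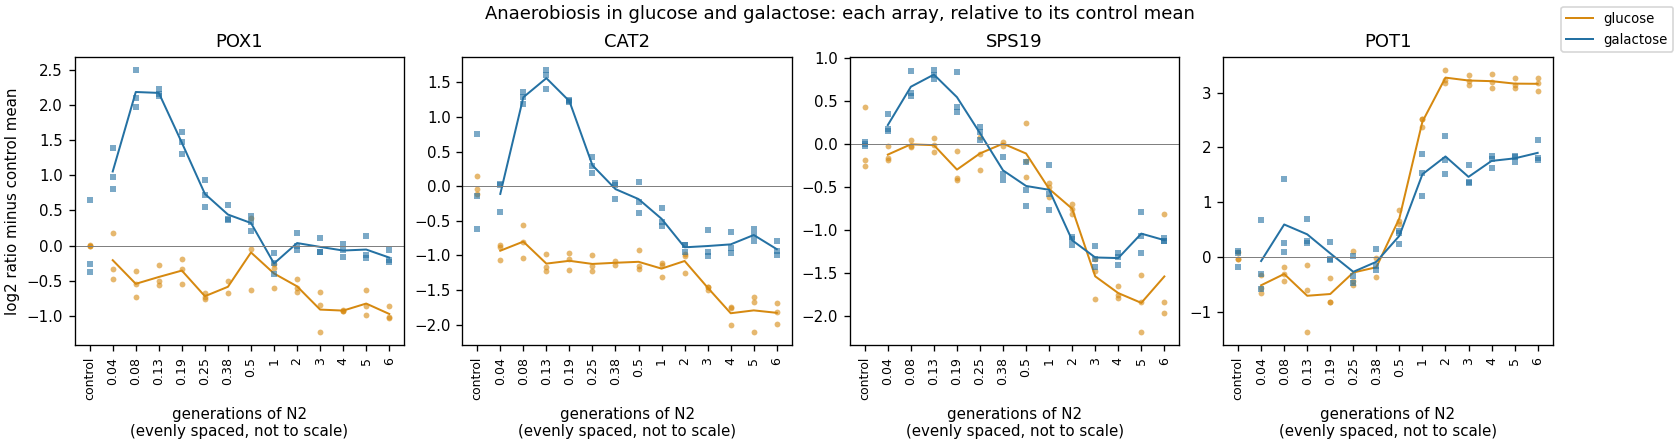
Log2 ratio of each array minus the mean of its control arrays for POX1, CAT2, SPS19 and POT1 over 6 generations of N2 (evenly spaced), in glucose (circles) and galactose (squares); lines join the means. POX1 and CAT2 lay above the control in galactose at 0.08 to 0.19 generations and below it in glucose, and POT1 rose from 1 generation in both.

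The fifth comparison follows the return of air after 6 generations of N2. In galactose, 3 of the 10 genes were called, 2 higher (16.1% of all genes were) and 1 lower (12.5%). CTA1 showed the largest change of any member in the study. It had 1.96, 2.00 and 2.11 at 6.13 generations, soon after air returned, against -4.11, -4.22 and -4.20 in N2, a change of 6.20 ± 0.17 or 73.6-fold. The catalase was called at the first sample after the shift (1.38 ± 0.17 at 6.03 generations) and declined to 0.55 ± 0.17 at 7.6 generations, when it was no longer called. CAT2 was called higher from 6.1 to 6.2 generations, by 1.35 ± 0.13 at 6.13, with 0.85, 0.96 and 1.01 in air against -0.43, -0.40 and -0.40 in N2.

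POT1 went the other way. In galactose it read -1.45, -1.47 and -1.34 at 7.6 generations, against 1.31, 1.19 and 1.41 in N2, and fell by 2.72 ± 0.14; it was called from 6.1 generations onward. POX1, with 0.84 ± 0.14 at 6.1 generations, and SPS19, with 0.81 ± 0.15 at 6.2 generations, were not called, and neither were FAA2, ECI1, FOX2, PEX11 and CRC1, whose largest changes ran from -0.53 (PEX11) to 0.65 (CRC1).

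In glucose the same pair led. CTA1 had 3.60, 3.38 and 3.15 at 6.13 generations, against -0.86, -0.83 and -0.80 in N2, a change of 4.20 ± 0.18 (18.4-fold), and it was back to 0.36 ± 0.18 by 6.4 generations. POT1 read -2.82, -2.24 and -2.82 at 7.6 generations, against 1.21, 1.52 and 1.28 in N2, and fell by 3.96 ± 0.18 or 15.6-fold. CAT2 was called higher at 6.3 generations (0.77 ± 0.11) and CRC1 lower at 6.3 and 6.8 generations (-0.83 ± 0.13 at 6.8). That made 4 of 10 genes, 2 higher and 2 lower, when 12.9% and 9.06% of all genes were. CAT2 and CRC1 both lost their calls when any 1 of the 3 replicates was left out, and both lay under the 2-fold mark, so that 2 genes were left in each case.

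The change of CTA1 was smaller in glucose than in galactose by 2.46 ± 0.26 at 6.06 generations, with 2.21 in glucose and 4.67 in galactose, and the difference was called from 6.06 to 6.13 generations and again at 6.4. POT1 fell further in glucose, by 1.58 ± 0.24 at 6.4 generations, and POX1 differed by -1.23 ± 0.19 at 6.1 generations. These 3 of 10 genes compare with 9.23% of all genes. Only CTA1 was called without replicate 1, without replicate 3 or with only the groups compared in the fit. POX1 lost its call without replicate 2, and with quantile normalization CTA1 lost its call while POT1 and POX1 were called.

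**Figure D4:**
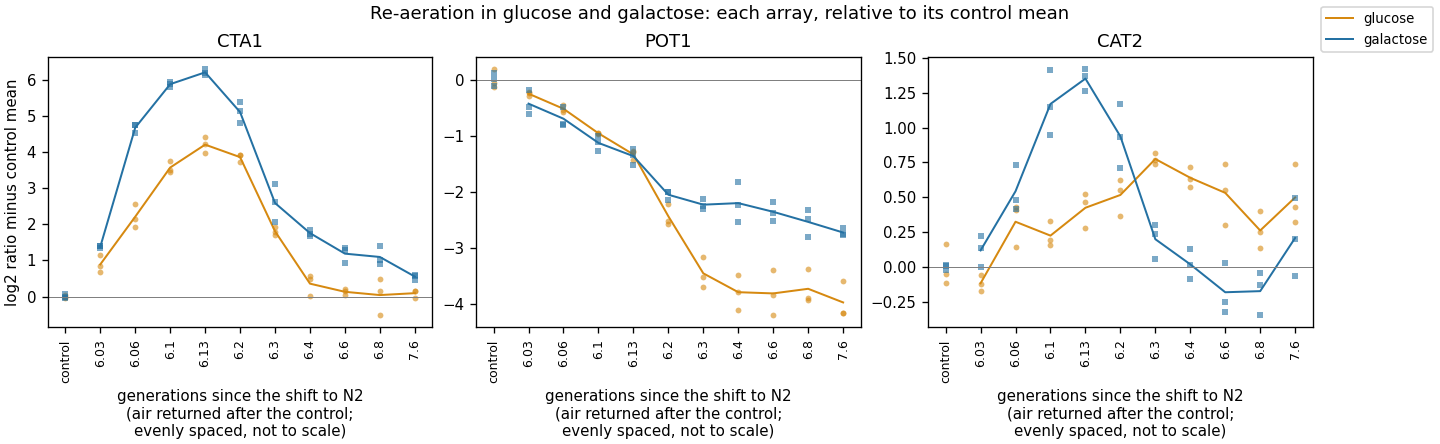
Log2 ratio of each array minus the mean of its N2 control arrays for CTA1, POT1 and CAT2 after the return of air, against generations since the shift to N2 (evenly spaced), in glucose (circles) and galactose (squares); lines join the means. CTA1 peaked at 6.13 generations at 4.20 in glucose and 6.20 in galactose, while POT1 ended at -3.96 in glucose and -2.72 in galactose.

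The last comparison asks which of these changes in galactose also take place without Msn2 and Msn4. ECI1 was the 1 gene of 10 called in the mutant (3.28% of all genes were called higher and 3.32% lower). It had 2.15, 2.38 and 2.48 at 0.19 generations of N2, against 0.21, 0.12 and 0.47 in air, a change of 2.07 ± 0.26. POX1 was higher still, with 4.60, 4.68 and 4.62 at 0.19 generations of N2, against 1.32, 1.53 and 1.76 in air. The groups did not overlap, and its change of 3.09 ± 0.40 fell just short of the threshold (adjusted P = 0.0108 by limma with Holm adjustment). At 2 generations the arrays of POX1 read 1.98, 3.67 and 4.32 and those of CTA1 1.26, 3.97 and 4.74, so that replicate 1 stood below the other 2. With that array left out, a choice made after seeing the values, the change of POX1 at 2 generations was 2.46 ± 0.21, and POX1 and ECI1 were called at all 4 times. Without replicate 1 altogether the same 2 genes were called, and without replicate 2 or replicate 3 limma called none of the 10, when 66 and 46 of all genes were called.

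The mutant's change differed from that of the wild type for ECI1 alone (8.87% of all genes differed in either direction), by 1.89 ± 0.25 at 0.19 generations, where ECI1 changed by 2.07 in the mutant and 0.18 in the wild type. For POX1 the difference at that time was 1.63 and was not called. CAT2 changed by 1.44 ± 0.39 in the mutant and 1.23 in the wild type, a difference of 0.21 with a 95% interval of -0.55 to 0.98. For CTA1 the difference at 0.19 generations was 1.82 ± 0.61, with 1.18 in the mutant and -0.64 in the wild type, and was not called. POT1 at 2 generations changed by 1.97 ± 0.31 in the mutant and 1.83 in the wild type, a difference of 0.14 with an interval of -0.67 to 0.94. Without replicate 1, and likewise without the array at 2 generations, 3 genes differed, POX1 and SPS19 being added, and without replicate 2 or replicate 3 limma called none of the 10, when 158 and 163 of all genes were called. Against its reference, which the labels name as wild type, the mutant had positive ratios of POX1 (1.32 to 4.83) on all 15 arrays. The same held for CTA1 (1.26 to 4.74), PEX11, FAA2, ECI1, SPS19 and CRC1, the aerobic controls included. CAT2 was above 0 on 14 of the 15 arrays, FOX2 on 13 and POT1 on 7. Those ratios were not compared with the wild type series, which had a reference of another name.

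**Figure D5:**
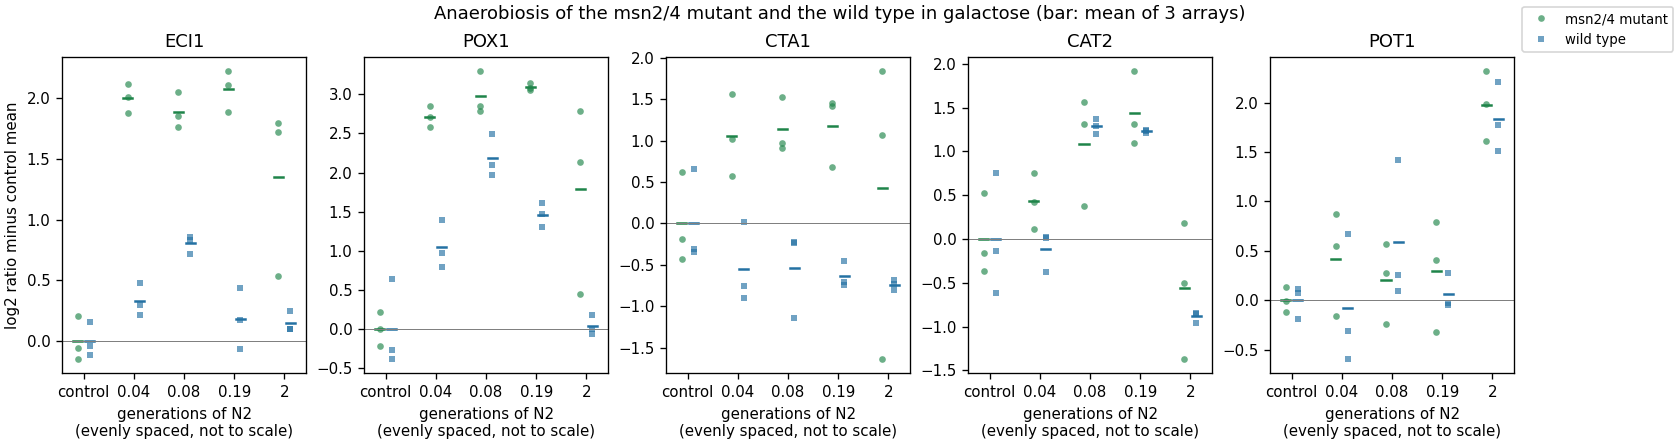
Log2 ratio of each array minus the mean of its control arrays for 5 genes during N2 in galactose, in the msn2/4 mutant (circles) and the wild type (squares), against generations (evenly spaced); bars are means of 3 arrays. ECI1 and POX1 stood higher above their controls in the mutant than in the wild type at 0.04, 0.19 and 2 generations, and the difference was called for ECI1 at 0.04 and 0.19.

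Across the 70 time points of the 7 treatments, the members did not share 1 course. The Pearson correlation of a gene's log2 changes with the median of the other 9 was 0.93 for POX1, 0.90 for FAA2, 0.72 to 0.77 for FOX2, ECI1, SPS19, CAT2 and CRC1, 0.48 for PEX11, 0.34 for CTA1 and 0.08 for POT1. The time points of a series share their control arrays and are not independent, so these values are a description. The 5 other genes with the courses most like the median of the 10 were ZTA1, a quinone reductase (r = 0.90), PXA1, a subunit of the peroxisomal fatty acid transporter (0.90), ERR1 and ERR2 (0.89 each), and SNO4 (0.88). ERR1 and ERR2, enolase-related genes, and SNO4, of the Hsp31 family, belong to multigene families whose near-identical copies the array may not separate.

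Other genes of the pathway were followed in 4 lists. Among 15 further genes of beta-oxidation and fatty acid activation, antimycin A in air raised 7 and lowered 2, when 11.4% and 12.3% of all genes were called, and the list's median change was 0.79 at 0.25 generations, against -0.01 for all genes. PXA1 was among them, with 3.00, 2.76 and 2.72 at 0.25 generations of antimycin A, against 0.20, -0.05 and 0.01 before it (2.78 ± 0.15). In the other treatments, 6 of the 15 were called higher and 7 lower in N2 in galactose, 1 and 5 in N2 in glucose, 1 and 5 in N2 with antimycin A, 6 and 1 in re-aeration in galactose, 3 and 1 in re-aeration in glucose, and 1 and 2 in the mutant. Over all genes the shares called higher and lower were 21.6% and 25.8% in N2 in galactose, 13.1% and 15.3% in N2 in glucose, 10.4% and 8.24% in N2 with antimycin A, 16.1% and 12.5% in re-aeration in galactose, 12.9% and 9.06% in re-aeration in glucose, and 3.28% and 3.32% in the mutant, and the counts of the lists below stand beside the same shares. FAA1, the main acyl-CoA synthetase for imported fatty acids, showed the largest rise and the largest fall of the list: it rose by 3.11 ± 0.16 at 6.1 generations, after air returned in glucose, and fell by 3.08 ± 0.14 at 0.5 generations of N2 in glucose. PCS60, a peroxisomal synthetase-like protein, had the next largest fall, by 1.93 ± 0.17 at 0.19 generations of N2 with antimycin A.

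Of 7 further genes of carnitine shuttling and acetyl-unit export, 4 were called higher and none lower in antimycin A in air (11.4% and 12.3% of all genes). All 7 had an unadjusted P under 0.05 by limma at some time, as did 4636 of the 5584 genes tested. The list's median change was 2.57 at 0.25 generations. CIT2, the peroxisomal citrate synthase, had 4.46, 4.28 and 4.41 at 0.25 generations of antimycin A, against 0.24, -0.02 and -0.08 before it (4.34 ± 0.15). ACS1, an acetyl-CoA synthetase, rose by 3.03 ± 0.24 at the same time. CIT2 fell by 2.03 ± 0.11 at 6.8 generations, after air returned in galactose. MLS1, the malate synthase of the glyoxylate cycle, had the largest fall of the list: it read 0.36, 1.25 and 0.86 at 2 generations of N2 in the mutant, against 4.70, 4.69 and 5.40 in air. In the other treatments 4 were called higher and 1 lower in N2 in galactose (21.6% and 25.8% of all genes), 1 and 2 in N2 in glucose, 2 and 0 in N2 with antimycin A, 1 and 1 in re-aeration in galactose, 0 and 1 in re-aeration in glucose, and 1 and 1 in the mutant.

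Of 31 genes for building peroxisomes, limma called none in antimycin A in air, in N2 with antimycin A or in re-aeration in glucose. At some time 27, 21 and 21 of them had an unadjusted P under 0.05 by limma. So did 4636 of 5584, 4555 of 5598 and 4573 of 5582 genes tested. In N2 in galactose 6 were called higher and 3 lower, against 21.6% and 25.8% of all genes, led by PEX5, the import receptor (1.00 ± 0.11 at 0.08 generations), and by PEX29 (-0.91 ± 0.12 at 0.19 generations) and PEX21 (-0.84 ± 0.12 at 1 generation). In N2 in glucose 1 was called higher and 1 lower, in re-aeration in galactose 3 higher, and in the mutant 1 higher. The largest rise was that of PEX18, an import co-receptor, by 1.41 ± 0.15 at 6.1 generations, after air returned in galactose.

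Among 11 regulators, ADR1, the activator of genes for non-fermentable carbon and peroxisomes, had 3.65, 3.69 and 3.36 at 6.8 generations, after air returned in glucose, against 1.48, 0.86 and 1.19 in N2, and rose by 2.39 ± 0.19. It fell by 2.86 ± 0.24 at 5 generations of N2 in glucose. CAT8, an activator of gluconeogenic genes, rose by 1.66 ± 0.19 at 0.08 generations of N2 in galactose and fell by 1.70 ± 0.15 at 6 generations of N2 in glucose. Both were also the 2 regulators called higher in antimycin A in air, where 11.4% of all genes were. In the other treatments 1 regulator was called higher and 1 lower in N2 in galactose (21.6% and 25.8% of all genes), 1 and 2 in N2 in glucose, 2 and 1 in N2 with antimycin A, 4 and 2 in re-aeration in galactose and 2 and 2 in re-aeration in glucose. In the mutant none was called by limma, and 6 had an unadjusted P under 0.05, as did 4078 of the 5605 genes tested. The 11 regulators include MSN2 and MSN4, which the mutant lacks, and MSN4 was 1 of the 6 (-1.33 ± 0.29 at 0.04 generations). A change of either gene in the mutant is therefore not read as a response.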

How the data were processed

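Total RNA was labelled with Cy3 and hybridized with a Cy5-labelled reference pool to custom 70-mer oligonucleotide arrays, which the authors scanned and normalized. The deposited values are log2 ratios as read here, and the base is not stated. With bases 2, e and 10, the time points of each gene were averaged on the linear scale. The median for the genes with the widest range over time was compared with that for the genes with the narrowest range. Base 2 gave the smallest gap in both galactose series of the wild type without inhibitor (0.04 and 0.03, against 0.26 and 0.23 for base e). The check assumes a pool of the series' own time points. For its arrays, the paper describes a reference pooled from an anaerobic culture and a culture returned to air after anaerobiosis. The antimycin A series were not put to the check, so their base was taken over from the other series. The labels give the glucose series the reference names of galactose cultures, and the mutant a wild type name. In those series the check therefore does not settle the base. For N2 in glucose, base e gave the smaller gap (0.07 against -0.09 for base 2). No array was identical to another. The deposited table was used without further normalization, and its open reading frames were named through a RefSeq gene table, where 5603 of 5609 matched.

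For each series, a mean was fitted for each time point in limma 3.58.1 (R 4.3.3), moderated with eBayes, and compared with the control. Genes needed at least 2 values in each group. Holm's adjustment ran over all genes tested at a given time, with 0.01 as the threshold, and passing at any 1 time made a gene called. Differences between treatments were tested as differences of changes at matched generations in a joint fit. The study's methods used a repeated-measures analysis with a step-down Bonferroni adjustment. The fit was tested on simulated data with known changes.

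The members and the gene lists were chosen with earlier results of these data known. Named genes were the 10 members, MSN2 and MSN4, the 2 largest called rises and 2 largest called falls in each list, and the 5 genes most like the members' median course. Replicates were separate arrays of a group, and P-values measure the spread between them. The number of arrays limits the precision. Replicate numbers were not taken to pair the samples, since the labels do not say what a number shares. Same-numbered arrays had median correlations of 0.06 to 0.21 in their deviations, with some pairs below 0. For arrays of different numbers the medians were -0.11 to -0.03, lower than for the same number in every series. These values do not decide what a number shares. Alternatives covered the adjustment, a 2-fold minimum, the groups in the fit, array centring, quantile normalization, missing values, moderation, the replicate block and each replicate left out.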

Additional observations from a re-analysis of the deposited data

Results flagged for a closer look

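The listed differences are those between the changes of a gene in a pair of treatments at the time where the difference had its smallest adjusted P, each called by limma with Holm adjustment over all genes. With 2 or 3 arrays a group, single arrays were not tested as outliers. The wild type N2 arrays in galactose enter all but the last of these comparisons.

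Between antimycin A in air and N2 in galactose, the difference in log2 change was 4.17 for POX1, 3.38 for CAT2, 3.35 for CTA1, 2.21 for CRC1 and 1.90 for FAA2 at 0.25 generations. It was 2.81 for SPS19 and 0.87 for FOX2 at 0.38 generations, 1.88 for PEX11 at 0.5 generations and 1.21 for ECI1 at 0.19 generations. PEX11 and FOX2 were called lower in N2 and were not called in antimycin A in air: at 0.5 generations PEX11 was at 0.80 with antimycin A and at -1.08 in N2.

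Between N2 with and without antimycin A, the difference was -2.75 for POX1 and -1.42 for SPS19 at 0.08 generations, and -2.43 for CAT2 at 0.13 generations. Between glucose and galactose in N2 it was -2.73 for POX1 at 0.08 generations, -2.68 for CAT2 at 0.13 generations, 1.76 for POT1 at 3 generations and -0.98 for ECI1 at 5 generations. Between the msn2/4 mutant and the wild type it was 1.89 for ECI1 at 0.19 generations. Between glucose and galactose after the return of air it was -2.46 for CTA1 at 6.06 generations, -1.58 for POT1 at 6.4 generations and -1.23 for POX1 at 6.1 generations.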

How the results depend on the processing

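Of 142 alternative counts of called members, over 12 comparisons, 101 lay within 1.5 times the count reported. Across 30 peak changes and 170 alternative values, 141 stayed on their side of the threshold, 29 lost their call, none reversed and none moved by over 1.5 times. With Benjamini-Hochberg in place of Holm adjustment, 8 members were called in N2 in glucose, in N2 with antimycin A and in re-aeration in galactose, where 3560, 2655 and 3654 of all genes were, and 5 in the mutant, where 2385 were; 8 differed between the sugars in N2 (3571 genes), 8 between N2 with and without antimycin A (3244), 6 between the mutant and the wild type (1745), and 6 between the sugars in re-aeration (1563). With only the groups compared in the fit, limma called 2 members in N2 in galactose (654 of all genes) and 0 in N2 with antimycin A (159). It called 2 in re-aeration in glucose (768 of all genes) and 2 in the mutant (170). In such fits 2 differed between the sugars in N2 (764 genes), 0 between N2 with and without antimycin A (415) and 1 between the sugars in re-aeration (282). These fits have fewer arrays to estimate the spread. A 2-fold minimum left 2 in re-aeration in glucose (730 of all genes), and quantile normalization left 2 between the sugars in N2 (1408). The control before the inhibitor gave 5 in N2 with antimycin A, all called higher, when 1506 of all genes were called.

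Replicate numbers were shared across groups but were not taken to pair the samples, and the replicate block was fitted for description. It gave 5 members in N2 with antimycin A (POT1 and CAT2 added), 5 in re-aeration in galactose (POX1 and SPS19 added), 2 in the mutant (POT1 added), 5 between N2 with and without antimycin A (FAA2 and ECI1 added), and 3 between the mutant and the wild type (FOX2 and SPS19 added). It added FAA2 in N2 in galactose and CAT2 between the sugars in re-aeration, and no member lost a call under it. Every array correlated best with its own number in re-aeration in galactose (33 of 33), and 14 of 15 did in the mutant, 35 of 42 and 31 of 41 in N2 in galactose and glucose, 30 of 33 in re-aeration in glucose and 27 of 63 with antimycin A, a hint from the data only.

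With each replicate left out in turn, fewer of all genes were called than with all replicates, and their counts stand in brackets. The member count ranged from 2 to 5 in N2 in galactose (1280 to 1758) and 2 to 4 in N2 in glucose (794 to 1049). It ranged from 7 to 8 in antimycin A in air (652 to 1217), 2 to 3 in N2 with antimycin A (519 to 712) and 0 to 2 in the mutant (46 to 66). In each case it was 3 in re-aeration in galactose (661 to 869) and 2 in re-aeration in glucose (616 to 752). For differences the member count ranged from 2 to 3 between the sugars in N2 (972 to 1406) and 7 to 9 between antimycin A in air and N2 (486 to 850). Between N2 with and without antimycin A it ranged from 1 to 3 (944 to 1477). It ranged from 0 to 3 between the mutant and the wild type (158 to 229), and 1 to 2 between the sugars in re-aeration (228 to 273). The group of 2 arrays, at 0.38 generations of N2 in glucose, could not be tested where a replicate left out left 1 array. Where no cause is given, the cause was not tested. With 3 arrays a group, the precision is limited.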

Other observations

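Genes within 2 places of a member in the annotation were set beside it over the same 70 time points. The course of FOX2 had a correlation of 0.88 with that of RSC4, rank 7 of 5522 genes, and 0.81 with that of MEH1, rank 13. ECI1 and RSO55 had 0.80, rank 26. These pairs were picked after all such neighbours of the 10 members had been seen. FAA2 and BUD25, which overlap in the annotation, had 0.27, and SPS19 and SPS18 had -0.53.

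For POX1, FAA2 and ECI1, the gene with the nearest course was a member or a listed gene of the pathway. These were FAA2 for POX1 and POX1 for FAA2 (0.94), and IDP3, the peroxisomal isocitrate dehydrogenase, for ECI1 (0.89). For the other members the nearest gene was outside the members and the lists. It was PHD1 for FOX2 (0.94), HPF1 for POT1 (0.94), DPL1 for CTA1 (0.89) and GCN4 for PEX11 (0.74). For SPS19 it was ARA2 (0.88), for CAT2 YMR090W (0.89) and for CRC1 SEC12 (0.75). TES1, the peroxisomal thioesterase, came next for SPS19 (0.86), and EGH1 came next for POT1 (0.93). For CTA1, CTT1, the cytosolic catalase (0.87), came after DPL1 and YGL114W (0.88). Time points share control arrays, so no test was made.

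In the glucose re-aeration series, POX1 lay between 1.01 and 1.81 (median 1.45) on all 33 arrays against a reference that the labels name as made from galactose cultures in air. FOX2, FAA2 and CAT2 were also above 0 on all 33 arrays, and SPS19 on all 32 with a value (median 1.45). The other members were above 0 on fewer: PEX11 on 24, CTA1 on 17, POT1 on 14, CRC1 on 11 and ECI1 on 5. PEX11 at 6.13 generations of that series read 0.82, -2.35 and -0.09, the widest spread among its groups of arrays there, and its change of -1.33 ± 0.44 was not called.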
